A study of Mus musculus with 13 samples.

Results

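The transcriptome of damaged mouse hepatocytes (dHeps) cultured in the small molecule cocktail 5C without the protein kinase D inhibitor CID755673 (group 5C-C) was compared with that of dHeps cultured in the solvent, dimethyl sulfoxide (DMSO). The comparison used the 4 count columns of these groups, 2 libraries each, out of 13 libraries in 7 groups, and covered all genes of the table: 27141 genes were listed and 19884 had enough counts to be tested. The dHeps of all groups were isolated from the livers of wild-type mice injured with carbon tetrachloride (CCl4) and were kept for 16 days in a serum-free hepatocyte maintenance medium. The 5C-C cells received GSK429286A, an inhibitor of the kinases ROCK1 and ROCK2, ETC-1002, an activator of AMP-activated kinase that also inhibits ATP citrate lyase, forskolin, which switches on adenylate cyclase, and Salidroside, a phenylethanoid glycoside. The 5C cells received the same compounds plus CID755673, and their 2 libraries are given beside the 5C-C values to show what the remaining compounds left without it. The labels give the cell type as hepatocytes, name no sort, and do not say whether libraries of a group came from separate cultures. The study states that its n counts separate biological replicates and gives n = 2 for its heatmap of these groups. It does not say there whether these were mice or cultures. The tests pooled the spread within groups over all 13 libraries. The p-values below therefore measure only that pooled spread between libraries, not that of the DMSO and 5C-C pairs alone.

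ROCK phosphorylates the myosin light chain and builds actin stress fibres, and the fibres in turn release MRTF, the partner of serum response factor (SRF), to the nucleus, where both switch on genes of the contractile apparatus. The tension of the same fibres keeps YAP active, a coactivator that works through the TEAD factors. Forskolin raises cyclic AMP, which in hepatocytes activates protein kinase A and the factor CREB and with them genes of fasting such as Pck1. The protein kinases D (genes Prkd1, Prkd2 and Prkd3) act below diacylglycerol and protein kinase C, and phosphorylate among others the class IIa histone deacetylases that hold MEF2 factors in check. AMP-activated kinase limits the synthesis of fatty acids and sterols when energy is low.

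The libraries held between 30195867 counts (5C-C library A) and 45491932 counts (5C-C library B) over genes, and the DMSO libraries 36541583 and 31129213. Libraries of a group are called A and B in the order of their columns. The 5C-C pair was less alike than the others: the chi-square of its counts per degree of freedom was 72.4, against 7.57 for the DMSO pair and 13.3 for the 5C pair. Hepatocyte genes were present in all 4 libraries. Albumin (Alb) stood at 9711 and 8604 FPKM (fragments per kilobase of transcript, scaled to the library total) in DMSO and at 3433 and 2553 in 5C-C, transthyretin (Ttr) at 415 and 453 against 142 and 188, apolipoprotein A1 (Apoa1) at 1415 and 1273 against 1316 and 1765, Cps1 at 69.3 and 55.3 against 24.1 and 10.8, and Hnf4a at 19.8 and 19.8 against 17.4 and 13.4. Serpina1c, an antitrypsin gene of hepatocytes, was low at 1.73 and 2.22 against 1.51 and 0.516. Markers of other cells were present too and moved between the same libraries. The summed level of 17 macrophage markers was 6241 and 6333 FPKM in DMSO and 1441 and 2149 in 5C-C. That of 11 endothelial markers was 197.6 and 215.1 against 72.04 and 70.59. In DMSO Lyve1 and Stab1, which macrophages also carry, held most of the endothelial sum. The summed level of 12 stellate and fibroblast markers was 91.68 and 90.01 against 101.8 and 116.9, and of 10 cholangiocyte markers, described below, 6 rose. The part that these cells had in the results was not tested.

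The difference between 5C-C and DMSO moved with base composition. Over the 19787 genes with a known GC content, the log2 fold change correlated with the GC content of the transcript with a Spearman coefficient of 0.30, across genes and as a description only. In the decile of genes with the lowest GC content (median 40.0%) the median log2 fold change was -0.59, with 52 genes called higher and 418 called lower. In the decile with the highest (median 59.7%) it was 0.66, with 434 called higher and 61 called lower. The difference between libraries B and A of the 5C-C pair had a coefficient of 0.20 with GC content, and that of the DMSO pair -0.017. The difference between 5C and DMSO had a coefficient of -0.18, the opposite sign. An offset that takes out the trend with GC content and transcript length brought the coefficient to 0.029, and its value is given below for called genes with a printed fold change whose call it ended or whose fold it moved by more than 1.5 times, and for lists whose counts or medians it moved. The part that base composition had in single results was not tested.

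**Figure D1:**
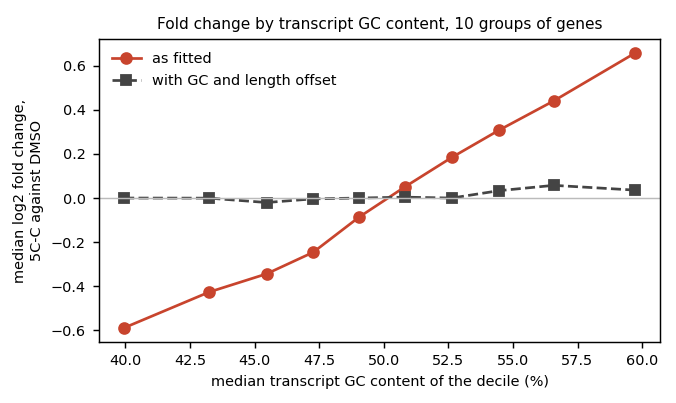
Log2 fold change of 5C-C against DMSO by deciles of the tested genes ordered by the GC content of their transcripts (x axis, percent), with and without the offset for GC content and length. The medians climb from -0.59 in the lowest decile to 0.66 in the highest without the offset and lie within 0.06 of 0 with it.

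In 5C-C against DMSO 4391 genes passed the test, which asked for an adjusted p under 0.05 and more than a 2-fold difference (a log2 fold change above 1 or below -1). They were 22.1% of the genes tested. Of these 2058 were higher in 5C-C (10.4%) and 2333 lower (11.7%). With the offset for GC content and length 2805 genes passed, 1425 higher (7.17% of the genes tested) and 1380 lower (6.94%), and 2174 of them had passed in the same direction without it. Without 5C-C library B 3170 genes passed, and without 5C-C library A 5227. Against the same DMSO libraries the complete cocktail 5C gave 905 genes (4.55%), 331 higher (1.66%) and 574 lower (2.89%). The direct test of 5C-C against 5C gave 4011 genes (20.2%).

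The gene lists that stood farthest from the median of all tested genes, 0.00, were the contractile genes and the macrophage markers on the low side and the cholangiocyte markers, the cell cycle genes and the acute phase proteins on the high side. The counts of 5C-C against DMSO given below for each list stand against the 10.4% of all genes called higher and the 11.7% called lower. With the offset these shares are 7.17% and 6.94%. Counts of 5C against DMSO stand against 1.66% higher and 2.89% lower, and those of 5C-C against 5C against 20.2% called in either direction. The lists are described by the processes the compounds act on, then by the functions of the hepatocyte, and last by markers of other cells.

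**Figure D2:**
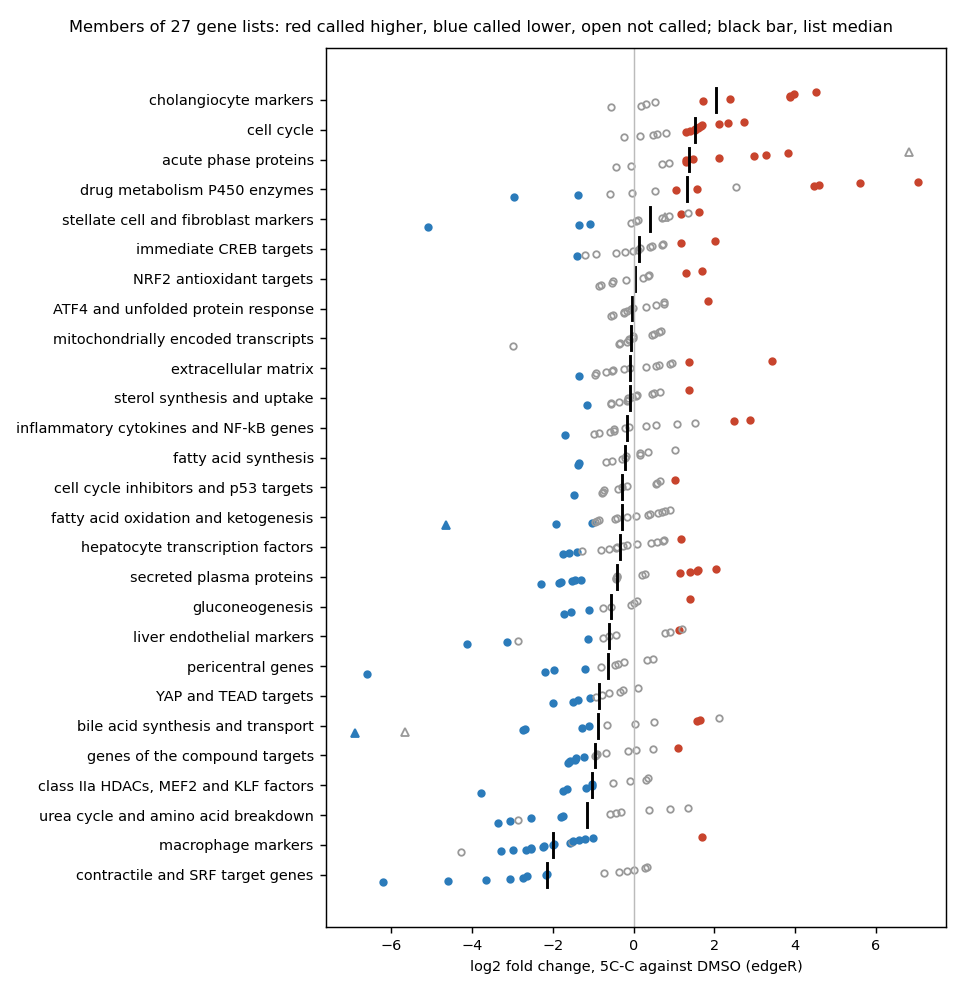
Log2 fold change of 5C-C against DMSO for the members of the gene lists (points, one per gene; triangles mark genes with a group at or under 3 counts), with the median of each list. The contractile genes (median -2.16) and macrophage markers (median -2.01) lie lowest, and the cholangiocyte markers (median 2.05) and cell cycle genes (median 1.52) highest.

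Contractile genes were far lower in the cells treated with 5C-C. Of the 14 contractile genes and SRF targets tested, 8 fell, 0 rose and 6 did not pass, against 11.7% of all genes called lower. The median log2 fold change of the list was -2.16, and the same number fell with the offset (median -2.34), without each library in turn and with a test by limma on log2(FPKM + 1) in place of the counts (median -1.50). Macrophage markers were also lower in these libraries (median -2.01). Of 12 stellate and fibroblast markers 2 rose and 3 fell, against 10.4% of all genes called higher and 11.7% lower. The part that these cells had in the falls of contractile genes was not tested. In 5C against DMSO 3 of the 14 fell (median -0.38), and in the direct test of 5C-C against 5C 8 fell (median -1.40).

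Acta2, the smooth muscle actin that marks activated stellate cells and myofibroblasts (ENSMUSG00000035783, GRCm39 chromosome 19, 34217737 to 34232990, minus strand), stood at 256 and 299.9 FPKM in DMSO, 233 and 215 in 5C, and 33.2 and 44.1 in 5C-C. The 5C-C libraries lay below those of DMSO and 5C, with a log2 fold change against DMSO of -2.75 ± 0.22 (SE, adjusted p = 1.8e-07, n = 2 per group, edgeR) and against 5C of -2.36 ± 0.21 (adjusted p = 2.6e-06, edgeR). Myh11, the smooth muscle myosin heavy chain (chromosome 16, 14012399 to 14109236, minus strand), stood at 4.63 and 4.96 FPKM in DMSO, 1.27 and 1.47 in 5C, and 0.087 and 0.0404 in 5C-C. The groups did not overlap, and the 5C-C level was 73.5-fold below DMSO (log2 fold change -6.20 ± 0.46, adjusted p = 1.0e-07, edgeR). Actg2, the enteric smooth muscle actin, went from 10.8 and 14.1 FPKM to 0.212 and 0.704 (-4.59 ± 0.44, -3.998 without 5C-C library A and -5.80 without library B), with 2.2 and 3.58 in 5C. Cnn1, calponin of smooth muscle, went from 6.74 and 8.57 to 0.604 and 1.09 FPKM (-3.06 ± 0.42), with 2.45 and 3.37 in 5C. For both the 5C libraries lay between the other groups. Vcl, vinculin of the focal adhesions, stood at 47.2 and 40.3 FPKM in DMSO, 32.8 and 34.1 in 5C, and 5.59 and 1.00 in 5C-C, so that the 5C-C libraries differed from each other by a larger ratio than those of the other groups (-3.67 ± 0.55, adjusted p = 8.4e-05, edgeR, -5.30 without 5C-C library A and -2.91 without library B). Flna, the actin crosslinker filamin A, was with Acta2 the most abundant member over DMSO and 5C-C together. It did not pass at 119 and 114 against 61.7 and 68.8 FPKM (-0.75 ± 0.16, and -0.09 with the offset).

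**Figure D3:**
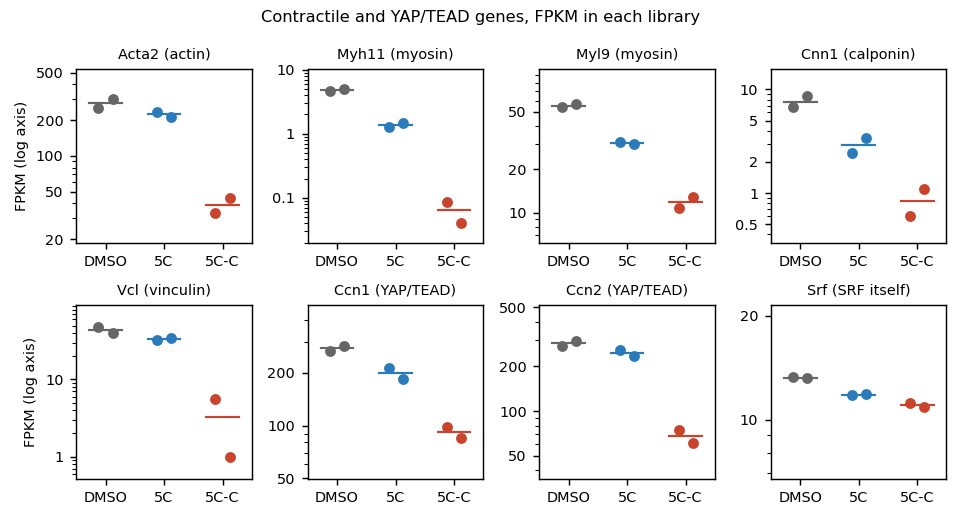
FPKM (log axis) of contractile and YAP target genes in each library of DMSO, 5C and 5C-C. Acta2 stands at 33.2 and 44.1 in 5C-C against 215 to 299.9 in the other libraries, and Ccn2 at 75.2 and 60.7 against 234 to 298.

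The CArG box, the site that SRF binds, was searched on both strands of the 250 bases before the start site in the RefSeq promoters (GRCm38.p6) to show which contractile genes carry it next to their start. It was found in 4 of the 11 contractile genes whose promoter was in the table and in 1.47% of all 32851 promoters of this length. The stretches with the box are printed 5′ to 3′ on the strand of the gene with the box in capitals: Vcl at chr14:20929161-20929220 (plus strand), Myl9 at chr2:156775293-156775352 (plus strand), Srf itself at chr17:46556195-46556254 (minus strand) and Cnn2 at chr10:79988534-79988593 (plus strand).
Vcl: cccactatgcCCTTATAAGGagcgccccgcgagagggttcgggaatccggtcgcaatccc
Myl9: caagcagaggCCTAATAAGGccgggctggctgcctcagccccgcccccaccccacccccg
Srf: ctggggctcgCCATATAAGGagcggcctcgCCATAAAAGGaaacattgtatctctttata
Cnn2: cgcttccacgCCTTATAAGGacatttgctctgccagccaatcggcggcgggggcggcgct
The 4 genes differed in their response. Vcl fell as given above, and Myl9, the regulatory light chain of smooth muscle myosin, fell from 54.0 and 56.8 to 10.7 and 12.8 FPKM (-2.14 ± 0.22, adjusted p = 2.6e-06, edgeR, and -3.01 with the offset). Srf did not pass, at 13.2 and 13.2 against 11.2 and 10.9 FPKM (-0.17 ± 0.17), and neither did the widely expressed calponin Cnn2, at 76.3 and 76.1 against 64.0 and 79.4 (0.01 ± 0.22, a sign that changed with the scaling). Myl9, Srf and Cnn2 are named for the box in their promoter, not for their change. A match of letters describes the window only.

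Of 10 targets of YAP and TEAD tested, 4 fell, 0 rose and 6 did not pass, against 11.7% of all genes called lower (median -0.87, against -0.16 in 5C, where none passed). With the offset 3 fell, and the exception was Crim1. Ccn2, the connective tissue growth factor (listed as Ctgf), stood at 273 and 298 FPKM in DMSO, 259 and 234 in 5C, and 75.2 and 60.7 in 5C-C (log2 fold change -1.99 ± 0.18, adjusted p = 5.6e-07, edgeR). Ccn1 (listed as Cyr61), a matricellular protein like Ccn2, stood at 265 and 286 FPKM in DMSO, 213 and 184 in 5C, and 98.7 and 84.4 in 5C-C (-1.50 ± 0.18, adjusted p = 9.6e-06, edgeR). For both genes the 5C-C libraries lay below those of DMSO and 5C. Amotl2, an angiomotin that binds YAP, went from 86.6 and 80.3 to 43.9 and 31.1 FPKM (-1.07 ± 0.20), and missed the fold threshold without 5C-C library B (-0.86) or DMSO library A (-0.98). Crim1, a membrane protein that binds bone morphogenetic proteins, went from 29.2 and 29.6 to 13.2 and 8.26 FPKM (-1.37 ± 0.23, and -0.88 with the offset, which ended the call).

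The letters GGAATG, the core of the TEAD site (CATTCC on the other strand), stood in the 250 bases before the start in 7 of the 8 listed genes with a promoter in the table and in 12.64% of all promoters. Shown, with the match in capitals, are Ccn1 at chr3:145650039-145650098 (minus strand), Amotl2 at chr9:102717729-102717788 (plus strand), Crim1 at chr17:78200159-78200218 (plus strand) and Ankrd1 at chr19:36120005-36120064 (minus strand, a further match lies outside the stretch).
Ccn1: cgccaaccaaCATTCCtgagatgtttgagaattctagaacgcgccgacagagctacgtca
Amotl2: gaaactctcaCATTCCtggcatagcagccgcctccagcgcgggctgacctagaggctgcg
Crim1: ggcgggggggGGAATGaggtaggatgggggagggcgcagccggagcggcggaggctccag
Ankrd1: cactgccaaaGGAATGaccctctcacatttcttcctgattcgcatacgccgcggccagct
Ankrd1, a cardiac ankyrin repeat protein and named here for the match, did not follow the other 3. It stood at 17.1 and 19.4 FPKM in DMSO, 27.6 and 21.4 in 5C, and 18.8 and 18.1 in 5C-C (0.11 ± 0.22, adjusted p = 0.75, edgeR), within the range of the solvent cells.

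Cell cycle genes were higher in 5C-C. Of 16 tested, 11 rose, 0 fell and 5 did not pass (median log2 fold change 1.52), against 10.4% of all genes called higher. With the offset 11 rose (median 1.93), and without 1 library at a time between 10 and 12 rose. Cholangiocyte markers were also higher in these libraries (median 2.05) and macrophage markers lower, and their part in these rises was not tested. In 5C against DMSO none of the 16 passed (median -0.35), and in the direct test of 5C-C against 5C 13 rose and 0 fell (median 1.61).

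Ccnb2, a B-type cyclin of mitosis (ENSMUSG00000032218, chromosome 9, 70314966 to 70328874, minus strand), stood at 3.44 and 4.13 FPKM in DMSO, 6.79 and 7.42 in 5C, and 20.9 and 26.0 in 5C-C. The 3 groups did not overlap, with a log2 fold change of 2.73 ± 0.24 against DMSO (adjusted p = 5.6e-07, edgeR) and 1.89 ± 0.23 against 5C (adjusted p = 3.3e-05, edgeR). Aurkb, the kinase of the chromosomal passenger complex, stood at 1.35 and 1.23 FPKM in DMSO, 1.09 and 1.04 in 5C, and 6.35 and 5.97 in 5C-C (2.34 ± 0.31 against DMSO, adjusted p = 3.2e-05, edgeR). Ccnb1, the other B-type cyclin of the list, went from 1.47 and 0.928 to 4.41 and 5.30 FPKM (2.11 ± 0.29). Mcm5, a subunit of the replicative helicase, went from 1.99 and 2.05 to 5.34 and 7.0 FPKM (1.71 ± 0.26), with 1.67 and 1.56 in 5C. For these 3 genes the 5C libraries lay at or near the DMSO level and the 5C-C libraries apart. Pcna, the sliding clamp of DNA polymerase and the most abundant member, stood at 22.6 and 23.0 FPKM in DMSO, 16.8 and 19.3 in 5C, and 23.5 and 23.8 in 5C-C, and did not pass (0.15 ± 0.17, and -0.0096 with the offset).

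**Figure D4:**
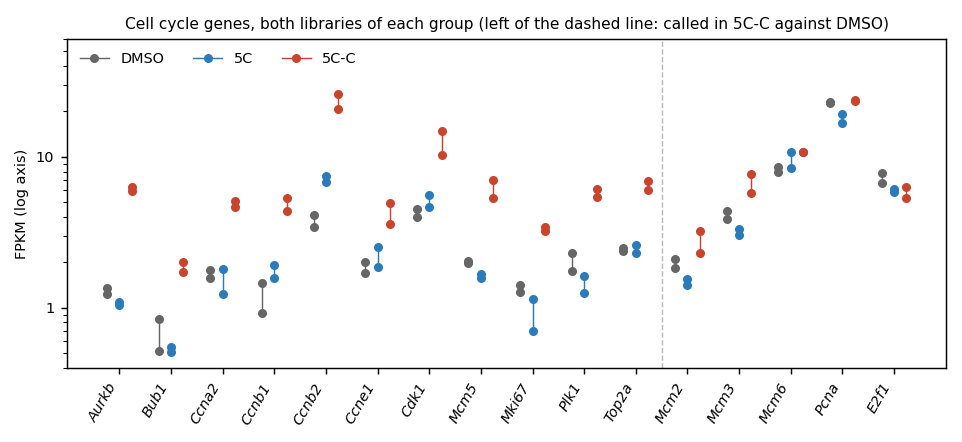
FPKM (log axis) of cell cycle genes in each library of DMSO, 5C and 5C-C. Ccnb2 stands at 20.9 and 26.0 in 5C-C against 3.44 to 7.42 in the other libraries, while Pcna spans 16.8 to 23.8 over all of them.

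Promoters of the mitotic genes are shown for the CCAAT box, which the factor NF-Y binds, and for the cell cycle homology region (CHR, TTTGAA or TTCAAA). Both motifs were added after the values were seen. CCAAT or its complement ATTGG stood in the 250 bases before the start of 12 of the 14 listed genes with a promoter in the table, and in 33.85% of all promoters. The CHR letters stood in 5 of the 14 and in 15.99% of all promoters. The stretches have matches to either motif in capitals (further matches lie outside them) and come from Cdk1 at chr10:69352913-69353002, Ccnb1 at chr13:100786487-100786595, Ccnb2 at chr9:70421555-70421651 and Mki67 at chr7:135716468-135716577, all on the minus strand.
Cdk1: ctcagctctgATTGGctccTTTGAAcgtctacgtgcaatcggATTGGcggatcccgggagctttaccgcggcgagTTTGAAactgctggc
Ccnb1: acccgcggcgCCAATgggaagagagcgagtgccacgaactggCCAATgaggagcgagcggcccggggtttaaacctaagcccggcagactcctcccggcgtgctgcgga
Ccnb2: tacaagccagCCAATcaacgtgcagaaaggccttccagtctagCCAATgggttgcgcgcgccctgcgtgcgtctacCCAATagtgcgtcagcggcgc
Mki67: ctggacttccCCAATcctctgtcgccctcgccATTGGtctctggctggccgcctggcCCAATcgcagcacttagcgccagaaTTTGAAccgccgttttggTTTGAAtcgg
Cdk1, the kinase that both cyclins bind, rose from 3.99 and 4.53 to 10.3 and 14.9 FPKM (log2 fold change 1.66 ± 0.21, adjusted p = 1.9e-05, edgeR). Mki67, which encodes the proliferation marker Ki-67, rose from 1.28 and 1.41 to 3.23 and 3.41 FPKM (1.39 ± 0.23, adjusted p = 2.4e-04, edgeR), with 1.14 and 0.699 in 5C, and its value was 2.34 with the offset. These 2 genes were chosen after their values were seen. Of the 11 cell cycle inhibitors and p53 targets, 1 rose, 1 fell and 9 did not pass (median -0.28), near the 10.4% and 11.7% of all genes called higher and lower. With the offset 0 rose and 1 fell, and 0 genes of the list were called both with and without it. Without DMSO library A or 5C-C library B 0 rose.

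The enzymes of drug metabolism split. Of 12 cytochrome P450 and related genes tested, 6 rose, 2 fell and 4 did not pass (median log2 fold change 1.31), and with the offset 5 rose and 2 fell (median 0.96). In 5C 6 rose and 0 fell (median 2.24), and in the direct test of 5C-C against 5C 1 was higher and 6 were lower. These genes belong to families of close paralogs, among which reads could have been split, so that the level of a single member is uncertain. Cyp3a11, the main CYP3A enzyme of mouse liver and a target of the pregnane X receptor (ENSMUSG00000056035, chromosome 5, 145791236 to 145816867, minus strand), had the largest rise among the genes above 10 FPKM. It stood at 0.708 and 0.542 FPKM in DMSO, 173 and 191 in 5C, and 85.7 and 70.8 in 5C-C. The solvent cells were near 0, the 5C-C cells were 132-fold higher (7.05 ± 0.34, adjusted p = 1.5e-09, edgeR) and the complete cocktail was higher still (5C-C against 5C -1.05 ± 0.25, adjusted p = 0.0038, edgeR). Cyp2c29 stood at 1.67 and 1.14 FPKM in DMSO, 169.9 and 165 in 5C, and 30.3 and 28.4 in 5C-C (4.47 ± 0.29 against DMSO and -2.35 ± 0.25 against 5C). Cyp3a25 rose from 0.0525 and 0.139 to 5.32 and 3.35 FPKM (5.60 ± 0.71, and 6.40 without DMSO library B). Cyp2a5 rose from 0.237 and 0.0929 to 6.74 and 1.00 FPKM (4.58 ± 0.92), with 5C-C library A well above library B (2.72 without library A, 5.38 without library B and 5.46 without DMSO library A). Por, the reductase that feeds electrons to the P450 enzymes, went from 41.0 and 41.2 to 79.2 and 81.7 FPKM (1.06 ± 0.18), and the offset (0.62), the scaling by total counts (0.97) and limma on log2(FPKM + 1) or log2(FPKM + 0.1) (0.95 and 0.97) each ended the call. Nr1i2, the pregnane X receptor, rose from 4.53 and 4.79 to 11 and 8.85 FPKM (1.18 ± 0.24), a call that the offset (0.98) and limma on log2(FPKM + 1) (0.94) each ended.

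Pericentral genes are those of the hepatocytes around the central vein that answer to Wnt. Of 10 tested, 4 fell, 0 rose and 6 did not pass, against 11.7% of all genes called lower (median -0.63), and 5 fell with the offset (median -1.09). None passed in 5C (median -0.33). Cyp2e1, the ethanol-inducible P450 that also turns CCl4 into its toxic radical (ENSMUSG00000025479, chromosome 7, 140343652 to 140355167, plus strand), had the largest fall among the genes above 10 FPKM. It stood at 108 and 112 FPKM in DMSO, 75.5 and 73.0 in 5C, and 1.33 and 0.813 in 5C-C. The level in 5C-C was 98.0-fold below DMSO (-6.61 ± 0.39, adjusted p = 8.8e-09, edgeR) and lower than in 5C (-5.97 ± 0.38, adjusted p = 6.6e-08, edgeR). Rgn, regucalcin, went from 13.5 and 12.1 to 2.61 and 2.67 FPKM (-2.19 ± 0.29). Tbx3 went from 1.07 and 0.63 to 0.249 and 0.162 FPKM (-1.97 ± 0.43) and Axin2, the direct target of beta-catenin, from 5.82 and 5.78 to 2.63 and 2.08 (-1.22 ± 0.25). Oat, the ornithine aminotransferase and the most abundant member over DMSO and 5C-C together, stood at 109.9 and 109 against 139 and 119.7 FPKM and did not pass (0.33 ± 0.16).

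**Figure D5:**
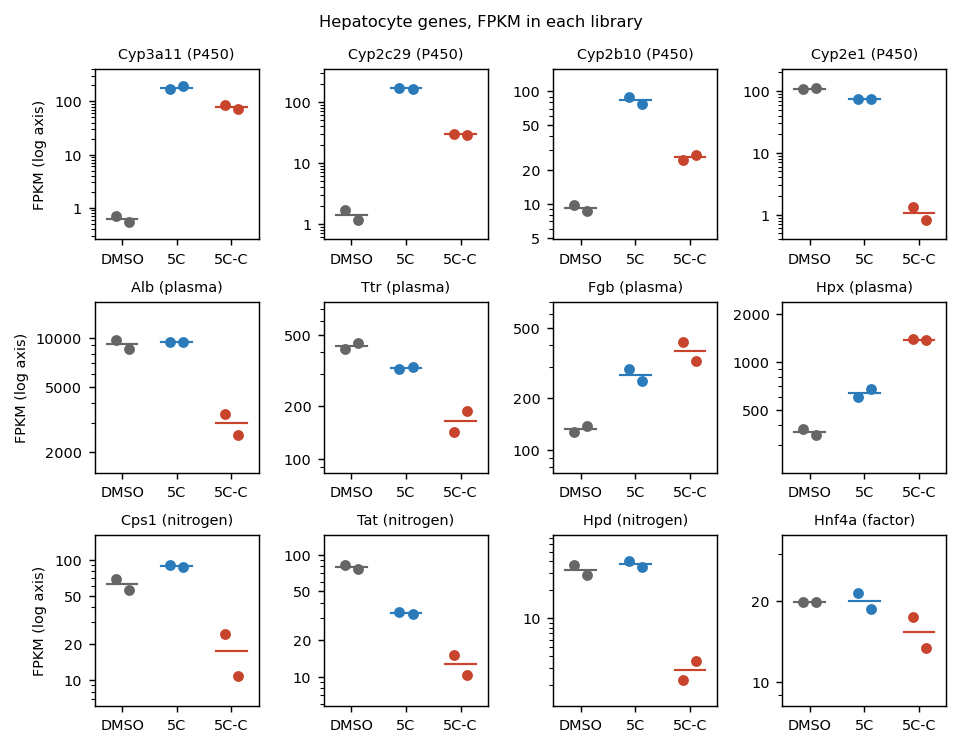
FPKM (log axis) of hepatocyte genes in each library of DMSO, 5C and 5C-C. Cyp3a11 is at 0.708 and 0.542 in DMSO and at 70.8 to 191 in the treated libraries, and Cyp2e1 is at 1.33 and 0.813 in 5C-C and at 73.0 to 112 in the others.

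Plasma proteins moved in both directions. Of 17 tested, 5 rose, 6 fell and 6 did not pass (median -0.42), against 10.4% of all genes called higher and 11.7% lower, and with the offset 4 rose and 6 fell (median -0.69). In 5C 3 rose and 0 fell (median 0.01). Alb (ENSMUSG00000029368, chromosome 5, 90608647 to 90624696, plus strand) was 2.88-fold lower in 5C-C than in DMSO (-1.53 ± 0.19, adjusted p = 1.9e-05, edgeR). The 5C libraries stood at 9437 and 9425 FPKM, within the DMSO range of 8604 to 9711, and the direct difference between 5C-C and 5C was -1.50 ± 0.19 (adjusted p = 4.6e-05, edgeR). Apoa2, an apolipoprotein of high density lipoprotein, went from 262 and 261 to 35.6 and 64.5 FPKM (-2.28 ± 0.26, and -3.20 with the offset). Serpinc1, antithrombin, stood at 2.64 and 2.81 FPKM in DMSO, 7.3 and 6.33 in 5C, and 0.758 and 0.716 in 5C-C (-1.80 ± 0.20), so that 5C lay above DMSO and 5C-C below it. Apob, the core protein of very low density lipoprotein, went from 39.0 and 41.9 to 12.5 and 8.88 FPKM (-1.84 ± 0.20, and -0.69 with the offset, which ended the call). Against these, Hpx, the heme scavenger hemopexin, rose from 376 and 344 to 1393 and 1368 FPKM (2.03 ± 0.20, adjusted p = 1.7e-06, edgeR), with 600.1 and 675 in 5C. Trf, transferrin, stood at 4147 and 4049 against 4834 and 4017 FPKM and did not pass (0.20 ± 0.15).

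Of 16 transcription factors that hold hepatocyte identity, 1 rose, 3 fell and 12 did not pass (median -0.34), a share not called near the 77.9% of all genes tested. With the offset 0 rose and 3 fell, and without either 5C-C library 2 rose. Hnf4a, the nuclear receptor at the head of the network, stood in DMSO at 19.8 FPKM in both libraries, in 5C at 21.5 and 18.8, and in 5C-C at 17.4 and 13.4 (-0.27 ± 0.17, adjusted p = 0.24, edgeR). Foxa2, a pioneer factor of liver, stood at 3.07 and 4.16 FPKM in DMSO, 6.54 and 5.27 in 5C, and 7.06 and 4.40 in 5C-C (0.75 ± 0.28, adjusted p = 0.046, edgeR), short of the fold threshold, which it passed without 5C-C library B (1.03), and the value was 0.40 with the offset. Cebpa, a factor that keeps hepatocytes differentiated and out of the cell cycle, fell from 37.6 and 39.2 to 15.0 and 12.6 FPKM (-1.39 ± 0.19, adjusted p = 4.2e-05, edgeR, and -2.05 with the offset), with 19.8 and 19.5 in 5C. Ppara, the receptor that drives fatty acid oxidation, fell from 2.08 and 2.08 to 0.801 and 0.377 FPKM (-1.75 ± 0.38, adjusted p = 0.0016, edgeR). Prox1, a homeobox factor of hepatoblasts and hepatocytes, went from 2.81 and 2.5 to 1.06 and 0.599 FPKM (-1.61 ± 0.26), and the offset ended its call (-0.74).

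Part of the genes of amino acid breakdown and the urea cycle were lower. Of 12 tested, 5 fell, 0 rose and 7 did not pass (median -1.17, and -0.54 with limma on log2(FPKM + 1)), with the offset 7 fell, and without 5C-C library A 1 rose. In 5C 2 fell (median -0.02). Hpd, of tyrosine breakdown, stood at 36.0 and 28.3 FPKM in DMSO, 40.6 and 34.9 in 5C, and 2.24 and 3.56 in 5C-C (-3.36 ± 0.30, adjusted p = 7.2e-07, edgeR, and -4.01 with the offset). Tdo2, of tryptophan breakdown, went from 14.6 and 17.2 to 1.99 and 1.57 FPKM (-3.07 ± 0.26), with 16.5 and 14.8 in 5C. Tat, the tyrosine aminotransferase induced by glucocorticoids and cyclic AMP, stood at 81.3 and 75.4 FPKM in DMSO, 33.6 and 32.3 in 5C, and 15.1 and 10.2 in 5C-C (-2.54 ± 0.20, adjusted p = 1.7e-07, edgeR). Ass1, argininosuccinate synthase, went from 105 and 91.3 to 62.7 and 61.1 FPKM (-0.57 ± 0.18), short of the fold threshold, which it passed with the offset (-1.14).

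Bile acid genes moved in both directions. Of 12 tested, 2 rose, 5 fell and 5 did not pass (median -0.89, or -0.83 with the 2 genes at or under 3 counts in a group set at their bound), and 3 fell with the offset or without 5C-C library B. The median rested on genes of low level: it was -0.26 over the 8 genes with at least 10 counts in each library, -0.29 over the 10 tested with only the 4 libraries, and -0.13 with limma on log2(FPKM + 1). In 5C 4 rose and 0 fell (median 1.01). Slc10a1, the sodium taurocholate cotransporter of the sinusoidal side, fell from 2.30 and 1.69 to 0.0902 and 0.459 FPKM (-2.69 ± 0.56, adjusted p = 0.0012, edgeR, -1.98 without 5C-C library A and -4.38 without library B). Slco1b2, an organic anion transporter, stood at 3.84 and 4.08 FPKM in DMSO, 14.3 and 11.9 in 5C, and 0.657 and 0.463 in 5C-C (-2.75 ± 0.41, adjusted p = 8.4e-05, edgeR, and -2.03 with the offset). Abcb11, the bile salt export pump, rose from 0.377 and 0.312 to 1.03 and 1.00 FPKM (1.65 ± 0.31, and 2.30 with the offset), below the 1.93 and 2.49 of 5C. Cyp27a1, the sterol 27-hydroxylase and the most abundant member, stood at 17.8 and 16.5 against 9.41 and 10.8 FPKM (-0.67 ± 0.19), short of the threshold. Cyp7a1, the rate-limiting enzyme of bile acid synthesis, had 28 and 2 counts in DMSO, 36 and 35 in 5C, and 0 and 0 in 5C-C, too few for a fold, and its 2 DMSO libraries disagreed. It is one of the 5 genes counted as fallen, and its call was lost in 6 of the 10 settings that could test it.

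Genes under cyclic AMP were called in both directions. Of 14 immediate CREB targets, 2 rose, 1 fell and 11 did not pass (median 0.14, 1 rose and 3 fell without 5C-C library A, and 1 rose without DMSO library B), near the 22.1% of all genes called, and of 9 genes of gluconeogenesis 1 rose, 3 fell and 5 did not pass (median -0.57). With the offset the medians were 0.23 and -0.35 and the counts the same, but only 2 genes of each list were called both with and without it. Of the gluconeogenesis genes 0 rose and 4 fell without 5C-C library A, 0 fell without library B, and 0 were called with limma on log2(FPKM + 1). Pde4b, a phosphodiesterase that degrades cyclic AMP, rose from 0.616 and 0.525 to 2.38 and 1.94 FPKM (2.01 ± 0.32, adjusted p = 1.3e-04, edgeR, and 2.67 with the offset), with 0.965 and 1.19 in 5C. Dusp1, a phosphatase of MAP kinases, fell from 72.2 and 69.6 to 29.3 and 21.0 FPKM (-1.41 ± 0.18, adjusted p = 1.8e-05, edgeR), with 40.1 and 43.4 in 5C. Pck1, the cytosolic carboxykinase that commits carbon to glucose, stood at 1.63 and 1.57 FPKM in DMSO, 3.50 and 2.82 in 5C, and 5.21 and 2.74 in 5C-C (1.39 ± 0.29, adjusted p = 0.0012, edgeR), and missed the fold threshold without 5C-C library A (0.92) or with limma on log2(FPKM + 1) (0.89). Igfbp1, a secreted binding protein of fasting and the most abundant of these genes, went from 1425 and 1311 to 941 and 576 FPKM (-0.77 ± 0.19), short of the threshold, which it passed with the offset (-1.11) or without 5C-C library A (-1.105). Of the 3 gluconeogenesis genes that fell, the calls of G6pc and Foxo1 ended without 5C-C library B (-1.08 and -0.97), as did the third, that of G6pc ended without DMSO library B (-1.13), with only the 4 libraries (-1.68) and with limma on log2(FPKM + 1) (-0.82) too, against -2.75 without 5C-C library A, and that of Foxo1 also with the offset (-0.31) and with limma (-0.999). The CRE letters TGACGTCA, their own complement, stood before the start of 1 of 12 CREB target genes with a promoter in the table (Dusp1), of 0 of 9 gluconeogenesis genes and of 1.55% of all promoters. Only these exact letters were searched, so variants and partial sites were not counted.

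Lipid genes are set here against the 22.1% of all genes called. Of 16 genes of fatty acid oxidation and ketogenesis 3 fell, 0 rose and 13 did not pass (median -0.29), whereas 6 rose in 5C (median 0.34). With the offset 2 fell, and without 5C-C library B 1. Without library A 6 fell and 1 rose, and of the 14 genes with at least 10 counts in each library 0 fell. Cyp4a10 and Cyp4a14, the omega-hydroxylases that mark activation of PPARalpha, were the members farthest from 5C. Cyp4a14 had 36 and 18 counts in DMSO, 975 and 810 in 5C, and 0 and 2 in 5C-C. Scaled to depth, DMSO over 5C-C was a ratio of 28.3 (95% counting interval 7.46 to 239.5) and 5C over 5C-C one of 935 (259 to 7728), both covering counting error only. Cyp4a10 stood at 0.700 and 0.974 FPKM in DMSO, 13.1 and 13.3 in 5C, and 0.376 and 0.0728 in 5C-C, with a log2 difference of -1.92 ± 0.52 from DMSO that did not hold without 5C-C library B (-1.08) or DMSO library B (-1.67), with only the 4 DMSO and 5C-C libraries (-1.83) or with limma on log2(FPKM + 1) (-0.59), and that was -3.35 without 5C-C library A. Of 14 sterol genes, Fdft1, squalene synthase, rose from 20.2 and 20.8 to 46.3 and 54.2 FPKM (1.38 ± 0.18), Idi1 went from 7.93 and 8.21 to 4.51 and 2.35 (-1.16 ± 0.31, and -0.80 with the offset), and 12 did not pass, while with the offset 2 rose and 0 fell, and 0 fell without 5C-C library B. Of 11 genes of fatty acid synthesis 2 fell and 9 did not pass, and 1 rose without 5C-C library A. The genes that fell were Scd1, the stearoyl-CoA desaturase, at 126 and 106 against 52.2 and 32.5 FPKM (-1.37 ± 0.22) and Gpam, at 28.1 and 26.4 against 11.2 and 8.74 (-1.36 ± 0.19), and the offset ended both calls (-0.87 and -0.82).

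Markers of macrophages were abundant in the solvent cells and lower in 5C-C. Of 17 tested, 14 fell, 1 rose and 2 did not pass (median -2.01), with or without the offset. In 5C 14 fell (median -2.97), and in the direct test of 5C-C against 5C 8 were higher and 1 lower (median 1.38). The summed level of the list was 6241 and 6333 FPKM in DMSO, 773.1 and 871.3 in 5C, and 1441 and 2149 in 5C-C, so that 5C-C lay between the others. In bulk libraries fewer cells of a type and less RNA per cell cannot be told apart, here and for every gene above. The Kupffer cell markers Clec4f and Timd4 were near 0 in DMSO and 5C-C: Clec4f had 30 and 37 counts in DMSO and 14 and 9 in 5C-C, and Timd4 had 50 and 54 against 0 and 6. Adgre1, which encodes F4/80 (chromosome 17, 57665573 to 57790527, plus strand), stood at 80.6 and 74.5 FPKM in DMSO, 11.5 and 12.6 in 5C, and 10.1 and 8.25 in 5C-C (-2.99 ± 0.18, adjusted p = 8.7e-09, edgeR). Lyz2, lysozyme, stood at 2509 and 2572 FPKM in DMSO, 244 and 306 in 5C, and 313 and 506 in 5C-C (-2.54 ± 0.23). Ptprc, which encodes CD45, went from 3.08 and 3.19 to 0.296 and 0.309 FPKM (-3.28 ± 0.23, and -2.55 with the offset). C1qa, of the first complement component, went from 825 and 772 to 233 and 510.2 FPKM (-1.0 ± 0.35, adjusted p = 0.033, edgeR, and -2.08 with the offset). With 58.7 and 58.2 in 5C it was higher in 5C-C than in 5C (2.84 ± 0.37, adjusted p = 5.7e-05, edgeR), and its 5C-C libraries differed from each other. The value against DMSO lay at the fold threshold, and the call was lost in 8 of 12 settings of the processing, among them without 5C-C library A (-0.50) or either DMSO library (-0.92 and -1.05), with DESeq2 (-0.98) and with no filter (-0.98). Without 5C-C library B it was -1.72. The part that these markers' cells had in the falls of other genes was not tested.

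Of 11 markers of liver endothelium tested, 3 fell, 1 rose and 7 did not pass, against 11.7% of all genes called lower (median -0.60, and -1.15 without 5C-C library A). With the offset 2 fell and 0 rose (median -0.014). Their summed level was 197.6 and 215.1 FPKM in DMSO, 57.35 and 57.06 in 5C, and 72.04 and 70.59 in 5C-C. Lyve1 fell from 66.0 and 77.3 to 4.94 and 2.82 FPKM (-4.13 ± 0.25) and Stab1 from 76.2 and 78.4 to 6.96 and 9.59 (-3.13 ± 0.24), genes that macrophages also carry. Stab1 is a scavenger receptor and Lyve1 a hyaluronan receptor. Stab2, which is more particular to sinusoidal endothelium, stood at 0.453 and 0.374 against 0.279 and 0.180 FPKM and did not pass. The other called genes were Fcgr2b, which fell from 20.66 and 22.35 to 9.71 and 8.755 FPKM, and Eng. Eng rose from 17.91 and 18.96 to 35.97 and 39.77 FPKM. With the offset neither Fcgr2b nor Eng was called.

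Of 12 markers of stellate cells and fibroblasts 2 rose, 3 fell and 7 did not pass, against 10.4% of all genes called higher and 11.7% lower (median 0.41, or 0.08 with the gene at or under 3 counts in DMSO set at its bound, and 0.02 without 5C-C library B). Without 5C-C library A 1 fell, without DMSO library B 1 rose, and with the offset 3 rose and 2 fell. Their summed level was 91.68 and 90.01 FPKM in DMSO and 101.8 and 116.9 in 5C-C. Reln, reelin, fell from 3.64 and 2.62 to 0.0905 and 0.0832 FPKM (-5.08 ± 0.30, adjusted p = 8.7e-09, edgeR, and -4.30 with the offset), with 2.47 and 2.26 in 5C, and Hand2, a factor of the stellate lineage, rose from 13.8 and 12.7 to 32.0 and 44.6 (1.63 ± 0.24, and 1.06 with the offset). Lrat, the retinol esterase of stellate cells, had 12 and 10 counts in DMSO and 32 and 24 in 5C-C. Of 15 genes of the extracellular matrix 2 rose, 1 fell and 12 did not pass, near the 22.1% of all genes called (median -0.09, and 0.44 with the offset, where 3 rose), but 3 fell without 5C-C library A or with scaling by total counts. Timp1, the inhibitor of matrix metalloproteinases (ENSMUSG00000001131, chromosome X, 20736316 to 20740976, plus strand), stood at 204 and 235 FPKM in DMSO, 257 and 257 in 5C, and 1835 and 2621 in 5C-C. It was 10.8-fold higher in 5C-C than in DMSO (3.44 ± 0.24, adjusted p = 5.7e-08, edgeR, and 2.64 with the offset) and higher than in 5C (3.28 ± 0.24, adjusted p = 3.5e-07, edgeR). Col3a1, a fibrillar collagen, rose from 174 and 181 to 453 and 406 FPKM (1.36 ± 0.15), and Postn, periostin, fell from 12.6 and 12.8 to 5.09 and 4.34 (-1.34 ± 0.17). Sparc, osteonectin, was the most abundant matrix gene of the list over DMSO and 5C-C together, though below Timp1 in 5C-C. It stood at 941 and 946 against 1595 and 1703 FPKM (0.90 ± 0.18), short of the fold threshold.

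Markers of cholangiocytes were higher in 5C-C. Of 10 tested, 6 rose, 0 fell and 4 did not pass (median 2.05, and 1.41 with limma on log2(FPKM + 1)), 5 rose with the offset, and 4 rose in 5C (median 1.86). Epcam stood at 1.63 and 1.39 FPKM in DMSO, 18.4 and 11.9 in 5C, and 24.6 and 17.1 in 5C-C (3.87 ± 0.74, adjusted p = 6.5e-04, edgeR), with no call between 5C-C and 5C (0.62 ± 0.64). Krt19, the keratin of bile ducts, stood at 68.0 and 70.5 FPKM in DMSO, 77.1 and 71.9 in 5C, and 224 and 202 in 5C-C (1.71 ± 0.19, adjusted p = 6.7e-06, edgeR), and with the offset it lay at the threshold (0.999) and was not called. The surface genes Cldn4 and Muc1 rose by log2 fold changes of 3.98 ± 0.83 and 3.89 ± 0.61 from levels of at most 1.93 FPKM in DMSO. Spp1, osteopontin, which macrophages also make and which held most of the summed level of the list, did not rise, at 2488 and 2845 FPKM in DMSO and 1812 and 1576 in 5C-C (-0.57 ± 0.15).

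Acute phase proteins, which hepatocytes secrete in response to interleukin 6, were higher. Of 12 tested, 7 rose, 0 fell and 5 did not pass (median 1.38), and with the offset 6 rose and 1 fell. In 5C 3 rose and 1 fell (median 0.71). Lcn2, lipocalin 2, stood at 185 and 208 FPKM in DMSO, 467 and 376 in 5C, and 768 and 843 in 5C-C (2.13 ± 0.21, adjusted p = 1.9e-06, edgeR, and 1.32 with the offset). Orm1, an orosomucoid, stood at 22.1 and 22.6 FPKM in DMSO, 96.5 and 84.8 in 5C, and 185 and 223 in 5C-C (3.29 ± 0.27, adjusted p = 2.4e-07, edgeR), and its paralog Orm2 rose too (3.84 ± 0.45, and 3.19 with the offset). The 3 groups did not overlap for Lcn2 and Orm1, with 5C between the others. Hp, haptoglobin, went from 813 and 823 to 2073 and 2152 FPKM (1.46 ± 0.17), a call that the offset ended (0.72). C3, the central complement component, stood at 548 and 503 against 997 and 819.8 FPKM (0.88 ± 0.15), short of the fold threshold, which it passed with the offset (1.12). Of 14 inflammatory genes tested of 15 listed, 2 rose, 1 fell and 11 did not pass (median -0.17), near the 22.1% of all genes called, and 3 fell with the offset. Without DMSO library A 0 rose, without each of the other libraries 1 rose and 2 fell, and with only the 4 libraries 3 rose. Il6, the cytokine itself, was low, at 0.158 and 0.396 against 1.17 and 1.74 FPKM (2.49 ± 0.65, adjusted p = 0.0062, edgeR), and its call was lost without DMSO library A (2.00) or 5C-C library B (2.14) and with limma on log2(FPKM + 1) (0.94), and it was 3.29 without DMSO library B. Ptgs2, the inducible cyclooxygenase, fell from 6.67 and 6.23 to 2.53 and 1.23 FPKM (-1.70 ± 0.30, and -1.04 with the offset).

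Stress genes are set here against the 77.9% of all genes tested that were not called. Of 10 NRF2 targets 2 rose, 0 fell and 8 did not pass (median 0.02), while with the offset 1 rose and 1 fell (median 0.51). Without 5C-C library A 2 rose and 2 fell, and without DMSO library B 1 rose and 1 fell. Of 12 genes of the unfolded protein response 1 rose and 11 did not pass (median -0.04, and 0.0033 with the offset). The gene that rose was Ddit3, which encodes CHOP, at 9.49 and 9.72 FPKM in DMSO, 6.07 and 5.26 in 5C, and 33.4 and 31.6 in 5C-C (1.85 ± 0.24, and 0.97 with the offset, which ended the call). Nqo1, a quinone reductase, stood at 2.22 and 2.02 FPKM in DMSO, 5.83 and 7.02 in 5C, and 5.45 and 4.43 in 5C-C (1.30 ± 0.36, adjusted p = 0.0089, edgeR), and its call was lost without DMSO library B (1.24) or with limma on log2(FPKM + 1) (0.92).

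The genes of the proteins that the compounds act on were measured as well. Of 14, 1 rose, 6 fell and 7 did not pass (median -0.95), against 10.4% of all genes called higher and 11.7% lower. With the offset 0 rose and 2 fell (median -0.41), against 6.94% of all genes called lower, and without 5C-C library B 0 rose. In 5C none passed. Prkd1 stood at 4.45 and 3.50 FPKM in DMSO and 3.38 and 3.42 in 5C-C (-0.14 ± 0.29), and Prkd2 at 5.32 and 4.49 against 4.29 and 5.36 (0.07 ± 0.21). Neither passed, and the sign of both changed with the processing. Prkd3 went from 8.56 and 8.27 to 3.82 and 2.92 FPKM (-1.24 ± 0.20, adjusted p = 1.9e-04, edgeR), with 10.4 and 10.2 in 5C, but with the offset the value was -0.49 and the call ended. The same held for Rock1, at 4.83 and 4.71 against 1.52 and 1.40 FPKM (-1.61 ± 0.26, and -0.60 with the offset), and for Rock2, at 17.8 and 18.2 against 7.02 and 5.31 (-1.46 ± 0.23, and -0.47 with the offset). Slc27a2, the acyl-CoA synthetase that activates ETC-1002, fell from 11.4 and 11.8 to 4.51 and 2.69 FPKM with and without the offset (-1.61 ± 0.25 without it, adjusted p = 1.1e-04, edgeR). Acly, ATP citrate lyase, stood at 35.0 and 32.3 against 24.6 and 15.2 FPKM (-0.68 ± 0.21), short of the fold threshold, which it passed without 5C-C library A (-1.003).

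Of the 10 genes of class IIa histone deacetylases, MEF2 and KLF factors, 6 fell, 0 rose and 4 did not pass (median -1.03), and 2 fell with the offset (median -0.62). Hdac9 fell from 0.906 and 0.910 to 0.0757 and 0.0488 FPKM (-3.79 ± 0.37, and -2.85 with the offset), with 0.151 and 0.175 in 5C. Klf4, a zinc finger factor of differentiation, stood at 29.9 and 28.0 FPKM in DMSO, 9.83 and 6.43 in 5C, and 15.3 and 8.65 in 5C-C (-1.19 ± 0.24), and missed the fold threshold without 5C-C library B (-0.86). The calls of Mef2a (-1.74 ± 0.20) and Mef2c (-1.65 ± 0.25) ended with the offset (-0.95 and -0.67).

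Among single genes above 10 FPKM, Dmkn and Tnfrsf9 had the largest rises after Cyp3a11. Dmkn, dermokine of stratified epithelia, stood at 0.200 and 0 FPKM in DMSO, 0.897 and 0.861 in 5C, and 8.71 and 15.0 in 5C-C (6.90 ± 0.74, adjusted p = 4.1e-06, edgeR). The DMSO level rests on 16 and 0 counts, so the size of this rise is loosely fixed (5.98 without DMSO library B, and no fold without library A). Tnfrsf9, the costimulatory receptor 4-1BB, stood at 0.281 and 0.0707 FPKM in DMSO, 1.08 and 1.85 in 5C, and 13.4 and 12.6 in 5C-C (6.25 ± 0.47, adjusted p = 1.2e-07, edgeR, 7.62 without DMSO library A and 5.61 without library B). Mmp7, matrilysin, which injured bile duct epithelium makes, stood at 9.31 and 14.4 FPKM in DMSO, 163 and 133 in 5C, and 382 and 352 in 5C-C (5.04 ± 0.83). Pnoc, prepronociceptin, stood at 2.55 and 3.09, 30.1 and 33.5, and 64.8 and 75.2 FPKM in the same order (4.73 ± 0.25, adjusted p = 3.2e-09, edgeR). Ecel1, an endopeptidase, and Reg3b, a secreted lectin, rose by 5.83 ± 0.45 and 4.70 ± 0.69. Pglyrp1, a peptidoglycan recognition protein, Sftpd, surfactant protein D, and Dmbt1, a scavenger of mucosal epithelia, rose by 5.75 ± 0.62, 5.41 ± 0.93 and 5.96 ± 1.22 (4.70 and 4.80 with the offset for Pglyrp1 and Sftpd, and 4.77 and 6.58 for Sftpd without DMSO library A and B). For all 9 genes the 5C libraries lay between DMSO and 5C-C.

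Among genes above 10 FPKM, Ms4a4a and Col8a1 had the largest falls after Cyp2e1. Col8a1, a short chain collagen (chromosome 16, 57444621 to 57575100, minus strand), stood at 38.6 and 38.0 FPKM in DMSO, 20.3 and 21.1 in 5C, and 1.02 and 1.00 in 5C-C (-5.15 ± 0.27, adjusted p = 3.2e-09, edgeR). Ms4a4a, a tetraspan protein of macrophages, stood at 94.0 and 91.6 FPKM in DMSO, 10.3 and 15.0 in 5C, and 2.65 and 1.89 in 5C-C (-5.28 ± 0.64, adjusted p = 1.4e-05, edgeR). Mug1 and Mug2, the paired murinoglobulins of plasma, fell (-3.88 ± 0.25 and -3.94 ± 0.27), and their reads may be shared between them. Kctd12 fell by 3.96 ± 0.23 (by 3.20 with the offset), and Actg2, Lyve1 and Vcl, given above, were also among the largest falls.

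Genes called in opposite directions against DMSO in 5C-C and in 5C were few. The contrasts share the DMSO libraries. Genes with such calls differ between 5C-C and 5C by the way they were chosen, so the direct test of 5C-C against 5C adds only the size. There were 24 genes called lower in 5C-C and higher in 5C, and 5 called higher in 5C-C and lower in 5C. Bhmt, which remethylates homocysteine, stood at 5.86 and 6.58 FPKM in DMSO, 40.3 and 39.4 in 5C, and 2.30 and 1.81 in 5C-C. It was 4.12 ± 0.26 lower in 5C-C than in 5C on the log2 scale. Mup20, a major urinary protein of a large family of near copies, stood at 2.65 and 3.01 FPKM in DMSO, 26.4 and 38.1 in 5C, and 1.71 and 0.638 in 5C-C, and its call against DMSO (-1.23 ± 0.46) was lost in 7 of 12 settings, without 5C-C library B (-0.66) or either DMSO library (-1.28 and -1.14), with a minimum of 10 counts or only the 4 libraries (-1.18 in each), and with limma on log2(FPKM + 1) and log2(FPKM + 0.1) (-0.86 and -1.34), and the value was -1.997 without 5C-C library A. Saa3, an acute phase serum amyloid that macrophages also make (chromosome 7, 46361422 to 46365576, minus strand), stood at 107 and 105 FPKM in DMSO, 13.2 and 21.1 in 5C, and 125 and 358 in 5C-C. 5C-C library A lay near the DMSO level and library B above it, and the call against DMSO (1.29 ± 0.37, adjusted p = 0.011, edgeR) was lost without 5C-C library B (0.30), without either DMSO library (1.34 and 1.27), with the offset (0.76), with only the 4 libraries (1.32) and with limma on log2(FPKM + 1) and log2(FPKM + 0.1) (0.991 and 0.996), and the value was 1.90 without 5C-C library A. The difference from 5C was 3.99 ± 0.41 (adjusted p = 7.5e-06, edgeR).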

How the data were processed

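RNA libraries (NEBNext Ultra) of dHeps after 16 days of culture were sequenced as paired ends. For the 13 libraries the authors deposited raw counts of reads by gene, and FPKM values in a second table. Per the labels, the processing notes name Subread and featureCounts for the counts, DESeq2, and the mouse build GRCm39. The annotation release and the strand setting are not given in the sources used here, so overlapping and antisense genes cannot be told apart. The deposited FPKM values are the counts divided by transcript length and library total.

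Raw counts were tested with the quasi-likelihood F-test of edgeR 4.0.16 (R 4.3.3) with TMM normalization over all 13 libraries in 7 groups, after filterByExpr, with Benjamini-Hochberg adjustment over all 19884 genes tested. A gene was called at an adjusted p under 0.05 and an absolute log2 fold change above 1. FPKM values were used for levels. The table's columns name the group of each library but cannot be tied to single samples by number, so the libraries were called A and B and nothing was paired. Alternatives were total counts, DESeq2 1.42.0, no filter, a minimum of 10 counts, only the 4 libraries compared, limma 3.58.1 on log2(FPKM + 1) and log2(FPKM + 0.1), an offset for GC content and length (splines with 5 df, gene models of GRCm39), an unadjusted p, and leaving out each library. On simulated data of these depths, the test recovered 98% of genes raised 4-fold, 90% of genes lowered 4-fold and 14% of those changed 2-fold in either direction. Recovery asked for an adjusted p under 0.05 and the right direction, not for the fold threshold. Every group was simulated with the same spread.

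The 27 gene lists (345 genes, all found in the table) and the genes described were chosen with earlier results of these data known. The genes named are the 10 largest rises and falls above 10 FPKM, in each list up to 4 called members with the largest change and the 2 most abundant (the text gives a part of these, and some genes are not reported here), a fixed set with Alb, Hnf4a, Foxa2, Cyp3a11, Cyp2c29, Cyp2e1, Acta2, Pck1 and the Prkd genes, and those called in opposite directions in 5C. A ratio with a group at or under 3 counts was given from the counts, with an exact 95% interval that covers counting error only.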

Additional observations from a re-analysis of the deposited data

Results flagged for a closer look

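The genes below were called in opposite directions against DMSO in 5C-C and in 5C, contrasts that share the DMSO libraries. They were taken by the size of their difference between 5C-C and 5C. The adjusted p of the direct edgeR test of 5C-C against 5C follows in part from that choice and is no separate support. Values are the log2 difference of 5C-C from 5C unless said otherwise. Lower in 5C-C were Cyp4a10 (-5.83, adjusted p = 2.22e-06), Mup20 (-4.67, adjusted p = 6.90e-06), Slco1b2 (-4.40, adjusted p = 5.29e-06) and Bhmt (-4.12, adjusted p = 6.63e-08), each with both 5C-C libraries below both 5C libraries. Cyp4a14 had a scaled count ratio of 935 between 5C and 5C-C (adjusted p = 6.63e-08).

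Higher in 5C-C were Saa3 (3.99, adjusted p = 7.52e-06), the ribosomal pseudogene Rpl15-ps3 (2.91, adjusted p = 1.45e-04), Fkbp2 (2.62, adjusted p = 2.71e-05), an immunophilin of the endoplasmic reticulum, and Ssbp4 (2.23, adjusted p = 6.63e-05), a single-stranded DNA binding protein. With the offset for GC content and length the log2 fold change against DMSO was 0.76 for Saa3, 0.21 for Rpl15-ps3, 0.33 for Fkbp2 and -0.03 for Ssbp4, none of them called, and all of them also lost the call without 5C-C library B (0.30, 0.84, 0.99 and 0.84). Reads of Rpl15-ps3 may belong to its parent gene.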

How the results depend on the processing

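The number of genes called in 5C-C against DMSO was 4391 and lay between 3987 and 4637 with total counts, DESeq2, no filter, a minimum of 10 counts, only the 4 libraries or limma on log2(FPKM + 0.1). It was 4970 with an unadjusted p. It was 2490 with limma on log2(FPKM + 1), 1116 higher and 1374 lower, where the pseudocount shrinks genes of low level. With the offset for GC content and length it was 2805, of which 1380 were lower. The cause of that difference was not tested. Without 1 library at a time, between 3170 and 5227 genes were called, 1298 to 2509 higher and 1872 to 2718 lower, the lowest of each without 5C-C library B and the highest without 5C-C library A. No paired analysis was possible because the columns carry running numbers that the labels do not tie to samples.

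Of 124 genes with a log2 fold change in the text, 78 kept direction and side of the threshold in all settings run. The offset ended 22 calls, limma on log2(FPKM + 1) 20 (Abcb11, C1qa, Cyp4a10, Cyp4a14, Cyp7a1, Foxo1, G6pc, Hdac9, Il6, Mef2c, Mki67, Mup20, Nqo1, Nr1i2, Pck1, Por, Ppara, Rpl15-ps3, Saa3 and Tbx3), and leaving out 5C-C library B 13. For the 105 of the 124 genes that were called, limma on log2(FPKM + 1) moved the fold of 41 by more than 1.5 times, all toward 0, and the offset that of 34. Signs changed for genes that were not called: Cnn2 (-0.086 with total counts, -0.094 and -0.095 with limma, -0.25 with the offset, and from -0.19 to 0.20 without 1 library), Prkd2 (-0.022 with total counts, -0.0225 and -0.027 with limma, -0.19 with the offset, and from -0.13 to 0.27 without 1 library), Prkd1 (0.017 with the offset, and from -0.30 to 0.086 without 1 library) and Pcna (-0.0096 with the offset), and for the called gene Ssbp4 (-0.025 with the offset). The medians of 7 lists near 0 changed sign in 1 to 5 settings each, among them sterol synthesis, matrix and NRF2 targets. On simulated data 14% of true changes of 2-fold reached an adjusted p under 0.05. The fold threshold was not applied there, and every group had the same spread.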

Other observations

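Levels of genes described above were read in all 7 groups as mean FPKM, with 1 library for the cocktail without Salidroside (5C-S) and 2 for the others. The genes were chosen after their values were seen, and no test was made. Acta2 was lowest in 5C-C (38.68), near the cocktail without ETC-1002 (5C-E, 47.02), and highest without the ROCK inhibitor (5C-G, 868.5). Cyp2e1 was lowest in 5C-C (1.073), followed by 5C-E (3.131) and 5C-G (10.74), against 109.9 in DMSO. Col8a1 stood at 1.014 in 5C-C and between 7.588 and 38.3 in the other groups.

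Timp1 was highest in 5C-C (2228), with 195.5 to 720.7 over the single libraries of all other groups. Ccnb2 was highest in 5C-C (23.46), followed by 5C-G (13.59) and 5C-E (12.63), with 6.012 without forskolin (5C-F). Cyp3a11, near 0 in DMSO (0.625), stood at 78.29 in 5C-C, between 31.79 in 5C-F and 191.8 in 5C-S. C1qa stood at 371.6 in 5C-C, 1477 in 5C-G and 798.7 in DMSO.

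Of the 13 transcripts encoded by the mitochondrial genome 12 were tested, and 0 were called in 5C-C against DMSO (1 at an unadjusted p, 1 with DESeq2, 1 with limma, and 2, both lower, without 5C-C library A). The median log2 fold change was -0.07 with all libraries, -0.47 without 5C-C library A and 0.30 without 5C-C library B, so the pair of 5C-C libraries lay on either side of DMSO.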
